A study of Mus musculus with 4 samples.

Results

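The expression of genes that mark epithelial and mesenchymal cells was followed in adult heart muscle cells of mice in which reprogramming factors could be switched on. The set was a fixed list of 34 genes, 20 epithelial and 14 mesenchymal, out of 20886 genes named on the array, and all 34 had a probe. The cells came from 10-week-old male mice, the offspring of a cross between animals with an αMHC promoter-driven CRE and animals with the tetO-Yamanaka's OSKM factor transgene, Pou5f1, Sox2, Klf4 and Myc. The αMHC promoter is active in heart muscle cells. A doxycycline-responsive transactivator is not named in the sources used here. Both groups carried the same transgenes. The control group received PBS and the other group intraperitoneal doxycycline, each for 2 days, with 2 arrays per group. No array came from mice given doxycycline without the factors, so drug and factors cannot be told apart.

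Epithelial cells are polarised and joined by E-cadherin and tight junctions, and their simple keratins form the intermediate filaments. Mesenchymal cells lack these junctions, rest on a fibronectin and collagen matrix, and use repressors of the SNAI and ZEB families, which bind E-box sequences and silence epithelial genes. In fibroblasts reprogrammed with the same factors, a shift from the mesenchymal to the epithelial programme is known as an early step. Heart muscle cells are neither. They use N-cadherin at the intercalated disc, while fibroblasts, epicardial cells and vessel cells of the heart carry many of the mesenchymal genes.

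The levels below are log2 processed signals relative to each array's own 75th percentile, and they can be compared between arrays for 1 probe but not between probes. A difference is doxycycline minus control with the standard error (SE) of a limma fit over 12542 genes, n = 2 arrays per group. A spot is called well above background by the scanner software. The 75th percentile was 112 to 248 units, and 50.6% to 51.8% of the spots of an array were well above background. Control array 1 stood apart, with a median coefficient of variation between repeated spots of 10.99%, where the other 3 had 4.02% to 4.81%. Separate animals are not stated for the arrays, and p-values therefore reflect only how far these samples spread, possibly for technical reasons. Slide position was split by treatment and cannot be told apart from it. All 10 heart muscle markers, among them Myh6 and Tnnt2, were well above background on all 4 arrays. Of the introduced factors, Myc differed by 3.41 ± 0.77 (SE, limma adjusted p = 0.331) and Klf4 by -0.28 ± 0.48 (limma adjusted p = 0.973). Pou5f1 was well above background on doxycycline array 1 alone and Sox2 on 0 arrays. Probe sequences were not in the sources used here, so whether these probes detect the transgene copies is unknown.

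The promoters of the 2 gene groups differed in the E-box that SNAI and ZEB repressors bind. RefSeq promoters (build GRCm38.p6, 250 bases before to 50 after a gene's start) matched 13 of the 20 epithelial and 8 of the 14 mesenchymal genes. Those without an entry were Cdh1, Krt19, Esrp1, Esrp2, Grhl2, Ovol1 and St14, and Snai2, Zeb1, Cdh2, Fn1, Foxc2 and Wt1. The motif CACCTG, or CAGGTG as it reads on the other strand, was found in 12 of the 13 epithelial genes (92.3%) and in 1 of the 8 mesenchymal genes (12.5%), Snai1. Spint1 was the epithelial gene without it. Of all 27025 genes in the table, 22.6% held it, and no matches overlapped. By promoter, since a gene can have several that share sequence, it was in 14 of 16 epithelial, 1 of 11 mesenchymal and 20.2% of all 32851. The mean GC content was 61.7% in the epithelial, 58.2% in the mesenchymal and 53.8% in all promoters. A match describes the letters only, and no binding was measured.

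The 250 bases before the start are shown, 5′ to 3′, for 2 epithelial genes that were well above background on all 4 arrays (Spint2 and Krt18), 2 that were so on none (Crb3 and Epcam), and the mesenchymal gene with a match (Snai1). Capitals mark the E-box on either strand.
Spint2, chr7:29281978-29282227, minus strand: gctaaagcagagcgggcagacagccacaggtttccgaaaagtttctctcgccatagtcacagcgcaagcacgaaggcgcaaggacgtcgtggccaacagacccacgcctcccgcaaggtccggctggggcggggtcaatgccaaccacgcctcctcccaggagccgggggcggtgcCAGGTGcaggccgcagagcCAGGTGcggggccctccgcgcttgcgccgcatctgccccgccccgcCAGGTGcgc
Krt18, chr15:102027966-102028215, plus strand: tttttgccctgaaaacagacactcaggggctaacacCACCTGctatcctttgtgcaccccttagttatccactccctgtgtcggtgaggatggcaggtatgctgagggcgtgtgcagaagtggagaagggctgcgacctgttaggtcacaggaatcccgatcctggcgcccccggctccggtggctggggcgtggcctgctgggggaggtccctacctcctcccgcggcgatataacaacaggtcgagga
Crb3, chr17:57061951-57062200, plus strand: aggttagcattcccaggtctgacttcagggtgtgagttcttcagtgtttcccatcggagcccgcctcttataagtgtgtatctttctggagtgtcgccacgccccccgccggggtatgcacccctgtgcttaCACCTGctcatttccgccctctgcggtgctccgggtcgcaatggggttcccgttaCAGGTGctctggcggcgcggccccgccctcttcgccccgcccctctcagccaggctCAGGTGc
Epcam, chr17:87635729-87635978, plus strand: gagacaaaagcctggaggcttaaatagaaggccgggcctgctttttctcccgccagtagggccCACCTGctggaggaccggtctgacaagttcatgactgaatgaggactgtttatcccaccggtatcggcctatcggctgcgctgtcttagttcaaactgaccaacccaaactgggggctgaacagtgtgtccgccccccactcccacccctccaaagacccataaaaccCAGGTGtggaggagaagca
Snai1, chr2:167537945-167538194, plus strand: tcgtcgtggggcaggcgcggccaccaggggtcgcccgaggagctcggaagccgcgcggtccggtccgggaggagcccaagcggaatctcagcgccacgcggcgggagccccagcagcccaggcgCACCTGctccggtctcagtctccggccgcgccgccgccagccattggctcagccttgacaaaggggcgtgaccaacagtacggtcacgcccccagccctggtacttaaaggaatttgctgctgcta
Spint2 and Crb3 held 3 matches each in these bases and Epcam 2, with the closest beginning 9, 7 and 19 bases before the start. The single match of Krt18 began 214 bases before the start and that of Snai1 126 bases before it. Measured and unmeasured epithelial genes alike held the motif.

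Many epithelial genes, Cdh1 and Epcam among them, were not well above background on any array, with or without doxycycline. Of the 20, 10 were not well above background on any of the 4 arrays, 2 were so on 1 array, 3 on 2 arrays and 5 on all 4. Among the 10 were defining genes of the programme. Cdh1, which encodes E-cadherin, had processed signals of 3.57 and 3.44 under PBS and 3.04 and 2.95 under doxycycline. These are means over repeated spots of 1 probe, and the dimmest signal called well above background lay between 8.71 and 11.9 on the 4 arrays. Epcam, the epithelial cell adhesion molecule, read 2.14 and 8.57 in control and 2.77 and 2.80 after doxycycline, without reaching the background threshold on any array.

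The other epithelial genes not well above background on any array were the tight junction genes Ocln, Cldn4 and Cldn6 and the polarity gene Crb3. With them were the splicing regulator Esrp2, the transcription factor Ovol1, the endosomal GTPase Rab25 and the membrane protease St14 (matriptase). St14 read 7.73 and 5.90 in processed signal under PBS and 8.52 and 5.03 under doxycycline. Their signals carry no order, and no fold is given for them. A level not well above the background of these arrays counted as not detected, which differs from absence.

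Cldn3 and Spint1 were well above background on 1 control array each and on neither doxycycline array. The tight junction gene Cldn3 was so on control array 2, with a processed signal of 12.4, against 4.67 on control array 1 and 5.34 and 7.56 after doxycycline. Spint1, an inhibitor of membrane serine proteases, was so on control array 1 at 19.7, against 2.29 on control array 2 and 2.50 and 2.59 after doxycycline. On each of these probes the control arrays disagreed with each other. A second Spint1 probe stayed under the background threshold on all 4 arrays, at 8.09 and 9.90 in control and 2.98 and 3.02 after doxycycline.

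**Figure D1:**
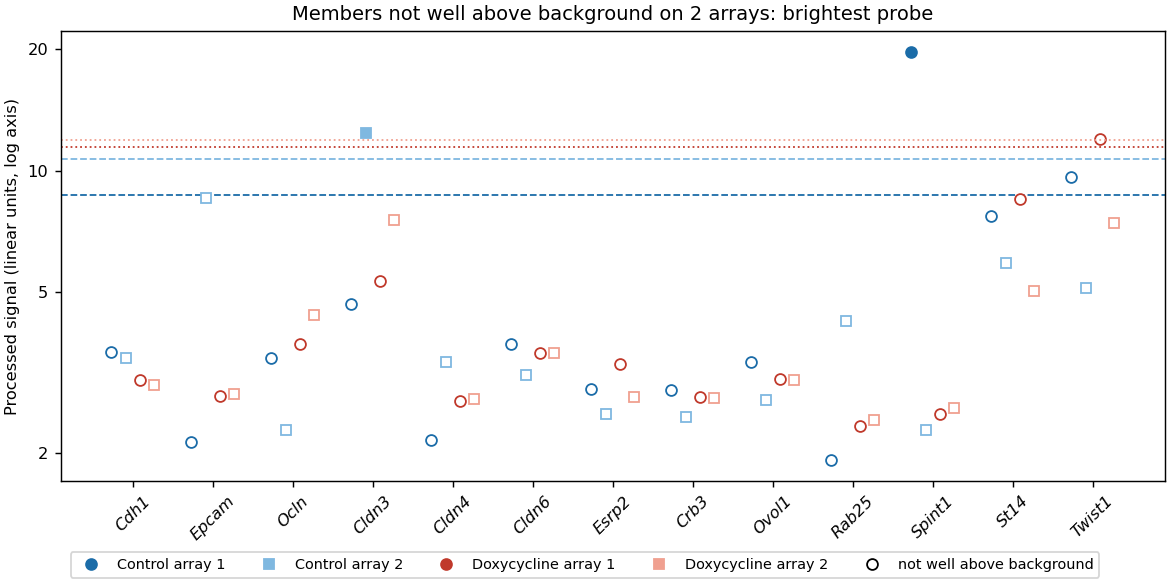
Processed signal (linear units on a log axis) of 1 probe for each of the 13 members that were not well above background on 2 or more arrays, one point per array. The probe well above background on the most arrays is shown, or the brightest where probes tie. Dashed lines (control) and dotted lines (doxycycline) mark the dimmest signal called well above background on each array. Filled points, of which there are 2, were called well above background: Cldn3 on control array 2 and Spint1 on control array 1. An open point can lie above its line, as for Twist1 on control array 1 and doxycycline array 1.

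Of the 8 epithelial genes measured on at least 2 arrays, 0 passed the limma test over all genes and 1, Grhl2, had an unadjusted p under 0.05. Grhl2 was measured only through its control arrays, so its count supports nothing by itself. Over all genes, limma called 0% at an adjusted p under 0.05 and 7.06% at an unadjusted p under 0.05. The median difference of the 8 was -0.32, beside -0.06 for all 12542 genes, with 3 above control on average, against 45.2% of all genes, and 5 below, against 54.8%. For 0 of the 8 were both doxycycline arrays above both controls, against 14.5% of all genes, and for 1 they were below both, against 20.8%. The direction of the median depended on the scaling and on 1 array. It was 0.01 with quantile normalization and 0.03 when arrays were scaled to the median, where the median of all genes moved to 0.29. Leaving out doxycycline array 1 turned it to 0.068 and leaving out doxycycline array 2 gave -0.52, while leaving out a control array gave -0.43 (array 1) or -0.21 (array 2).

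The 4 simple keratins had differences of either sign, and none passed the test. Krt18, the type I partner of Krt8, read -1.79 and -0.65 in control and -0.87 and -0.92 after doxycycline, a difference of 0.33 ± 0.50 (SE, limma adjusted p = 0.965). Krt8 read -4.89 and -3.39 against -3.91 and -3.86, a difference of 0.25 ± 0.57 (limma adjusted p = 0.976), and was well above background on control array 2 and doxycycline array 1 alone. For this filament pair both doxycycline arrays lay between the control arrays, and control array 1 was the lowest. Without control array 1 the signs turned, to -0.24 for Krt18 and -0.50 for Krt8.

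Krt7 and Krt19, keratins of ducts and of mesothelium, were lowest on doxycycline array 1. Krt7 read -3.35 and -2.59 in control and -4.04 and -3.04 after doxycycline, a difference of -0.57 ± 0.52 (SE, limma adjusted p = 0.913). Krt19 read -2.18 and -1.71 in control and -3.31 and -1.49 after doxycycline, which put the doxycycline arrays on either side of both controls, and differed by -0.46 ± 0.64 (limma adjusted p = 0.960). The gap between the doxycycline arrays was -1.003 for Krt7 and -1.82 for Krt19, larger than either treatment difference. Without doxycycline array 1, Krt19 turned to 0.45.

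Epicardial mesothelium makes these keratins too, so its other markers are given beside them. Of 10 such markers 9 had a probe and 8 were measured. The median gap from doxycycline array 2 to array 1 over these 8 was -0.95, and they had a median treatment difference of -0.61. Lrrn4 read -5.33 and -2.85 on the doxycycline arrays and Upk3b -2.56 and -1.75, while Msln, mesothelin, read 1.43 and 1.40. The summed linear level of the list was 4.35 to 5.03 in control and 4.24 to 5.48 after doxycycline, in multiples of the 75th percentile. Bnc1 stayed under the background threshold on all 4 arrays. The part of these cells in the keratin values was not tested. In such preparations fewer cells of a type and less RNA per cell cannot be told apart.

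Cldn7, a tight junction claudin, was well above background on all 4 arrays. It read -1.25 and -2.23 in control and -2.61 and -1.73 after doxycycline, overlapping, with a difference of -0.43 ± 0.53 (SE, limma adjusted p = 0.953). Spint2, which encodes a membrane inhibitor of serine proteases, read 0.02 and 1.29 in control and 1.099 and 0.79 after doxycycline, a difference of 0.28 ± 0.53 (limma adjusted p = 0.974). Its doxycycline arrays lay between the controls, and the difference was -0.35 without control array 1. A second Spint2 probe differed by 0.86, with the same order of arrays.

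Esrp1, which switches splicing to epithelial isoforms, was well above background on control array 1 and doxycycline array 1 alone. It read -3.52 and -4.77 in control and -4.32 and -4.38 after doxycycline, a difference of -0.21 ± 0.52 (SE, limma adjusted p = 0.978). A second Esrp1 probe stayed under the background threshold on all 4 arrays. The splicing factor thus stood near the limit of detection in both groups.

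Grhl2, a transcription factor that maintains epithelial junction genes including Cdh1, was measured in control only. Its brighter probe read -2.93 and -2.46 in control, well above background on both arrays, and -6.35 and -5.26 after doxycycline, below that threshold on both. In processed signal this was 14.8 and 31.0 against 3.05 and 5.03. The measured difference was -3.11 ± 0.51 (SE, limma adjusted p = 0.227), and an approximate bound was 2.90-fold lower after doxycycline. That bound sets the control mean against the mean, over the doxycycline arrays, of the dimmest signal called well above background. It is not a strict limit, since a signal that is not called can exceed the dimmest called one. Twist1 did so on doxycycline array 1, at 12.0 against 11.4.

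The Grhl2 difference carried limits. It entered the test only through its control arrays, so a difference was built into its being measured. A second Grhl2 probe was not called well above background on any of the 4 arrays, with -3.65 and -6.16 in control and -6.10 and -5.16 after doxycycline. It passed the limma test in 3 of the 12 alternatives that could include it: when arrays were scaled to the median (-2.76, adjusted p = 0.033), with the replicate number as a block (adjusted p = 8.1e-05) and without doxycycline array 2 (-3.65, adjusted p = 0.0032). Without that array the doxycycline group was 1 array, assumed to vary like the controls, and the spread came from the control pair and all genes. With normexp background correction the difference was -0.81 (limma adjusted p = 0.703), smaller in size than the bound. The adjusted p ranged from 8.1e-05 to 0.703 over these alternatives.

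**Figure D2:**
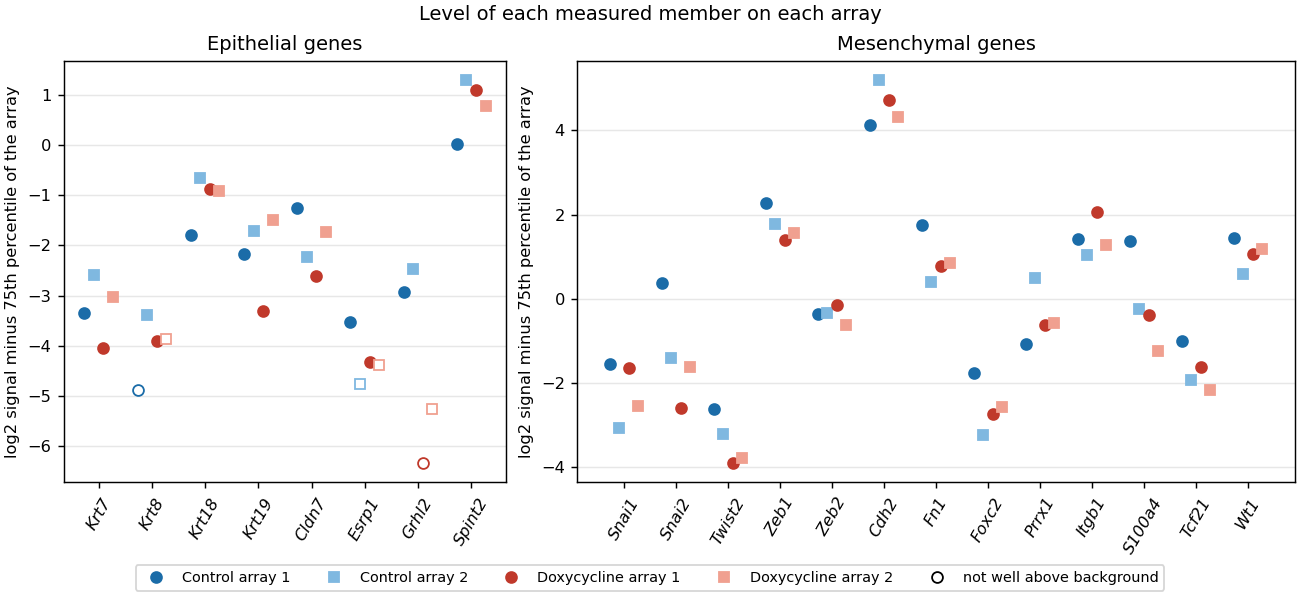
Level (log2 signal minus the 75th percentile of the array) of the 8 epithelial and 13 mesenchymal members measured on at least 2 arrays, one point per array, with open points for spots not well above background. Arrays may be compared within a gene but not between genes, and Grhl2 is the epithelial gene whose doxycycline arrays, at -6.35 and -5.26, both lie below both control arrays.

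Of the 14 mesenchymal genes, 13 were well above background on all 4 arrays. The exception was Twist1, which was so on none, with processed signals of 9.62 and 5.13 under PBS and 12.0 and 7.42 under doxycycline. Limma called 0 of the 13 at an adjusted p under 0.05, and 0 had an unadjusted p under 0.05. The median difference was -0.27 and 10 of the 13 lay below control on average, a share to be read beside 54.8% of all genes. Both doxycycline arrays lay below both control arrays for 4 of the 13, against 20.8% of all genes, and above both for 0, against 14.5%. Counting either direction and both gene groups, the arrays did not overlap for 5 of the 21 measured members, against 35.3% of all genes. The mesenchymal median was -0.049 without control array 1, where 7 of the 13 lay below control, and -0.80 without control array 2. When arrays were scaled to the median it was 0.073, with 5 of the 13 below control.

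Neither SNAI repressor passed the test, and whether the pair differed in response was not tested. Snai1 read -1.57 and -3.08 in control and -1.65 and -2.55 after doxycycline, with the doxycycline arrays between the controls and a difference of 0.22 ± 0.62 (SE, limma adjusted p = 0.980). Snai2 (Slug) read 0.36 and -1.41 in control and -2.60 and -1.62 after doxycycline, a difference of -1.58 ± 0.68 (limma adjusted p = 0.723). Both doxycycline arrays lay below both controls for Snai2. Doxycycline array 2 was close to control array 2, and without control array 1 the difference was -0.70.

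Of the ZEB repressors, Zeb1 lay lower on both doxycycline arrays and Zeb2 overlapped, and neither passed the test. Zeb1 read 2.28 and 1.77 in control and 1.40 and 1.55 after doxycycline, a difference of -0.55 ± 0.42 (SE, limma adjusted p = 0.896), and it kept its sign in all 13 alternatives. Zeb2 read -0.36 and -0.34 in control and -0.15 and -0.63 after doxycycline, a difference of -0.04 ± 0.41 (limma adjusted p = 0.995). Whether the pair differed in response was not tested. A second Zeb2 probe stayed under the background threshold on all 4 arrays.

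Twist2, a basic helix-loop-helix factor of mesenchyme, read -2.63 and -3.22 in control and -3.92 and -3.79 after doxycycline. Both doxycycline arrays lay below both controls, and the difference was -0.93 ± 0.42 (SE, limma adjusted p = 0.763), with the same sign in all 13 alternatives. The other factors overlapped between groups. Foxc2, a forkhead factor of mesenchyme, differed by -0.15 ± 0.56 and Tcf21, a factor of epicardium and cardiac fibroblasts, by -0.44 ± 0.49. Wt1, the Wilms tumour factor of the epicardium, read 1.44 and 0.58 in control and 1.05 and 1.19 after doxycycline, a difference of 0.11 ± 0.46 (limma adjusted p = 0.987). Without control array 1, Foxc2 turned to 0.58 and Tcf21 to 0.025.

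Prrx1, a homeobox factor of mesenchyme, gave different values on 2 probes that are labelled with different RefSeq transcripts. Which transcripts they detect was not tested. The brighter probe read -1.08 and 0.49 in control and -0.63 and -0.58 after doxycycline, overlapping, with a difference of -0.31 ± 0.58 (SE, limma adjusted p = 0.974). The dimmer one read -3.32 and -2.50 in control and -5.63 and -4.23 after doxycycline. It was well above background on both control arrays and on neither doxycycline array, and the same approximate bound as for Grhl2 was 2.49-fold lower. This second probe was not part of the test over all genes.

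The adhesion and matrix members stayed within the spread of the controls or close to it. Cdh2, N-cadherin, read 4.14 and 5.20 in control and 4.72 and 4.32 after doxycycline, a difference of -0.15 ± 0.50 (SE, limma adjusted p = 0.984), and a second probe differed by 0.03. Fn1, fibronectin, read 1.76 and 0.40 in control and 0.76 and 0.85 after doxycycline, a difference of -0.27 ± 0.54 (limma adjusted p = 0.976). For Fn1 both doxycycline arrays lay between the controls, and the sign turned to 0.41 without control array 1.

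Itgb1, the beta 1 integrin subunit that binds fibronectin and collagen, had the highest difference of the mesenchymal genes. It read 1.42 and 1.03 in control and 2.06 and 1.27 after doxycycline, a difference of 0.44 ± 0.46 (SE, limma adjusted p = 0.935) that was above 0 in all 13 alternatives. The groups overlapped on this probe. A dimmer probe read -2.21 and -1.67 in control and -0.93 and -1.09 after doxycycline, where they did not.

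S100a4, a calcium-binding protein of fibroblasts and of some blood-derived cells, read 1.37 and -0.24 in control and -0.39 and -1.24 after doxycycline. Both doxycycline arrays lay below both controls, by a difference of -1.38 ± 0.63 (SE, limma adjusted p = 0.764), and a second probe differed by -1.10. Without control array 1 the difference was -0.58. Snai2 and S100a4 shared a high value on control array 1, which exceeded control array 2 by 1.77 and 1.60.

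**Figure D3:**
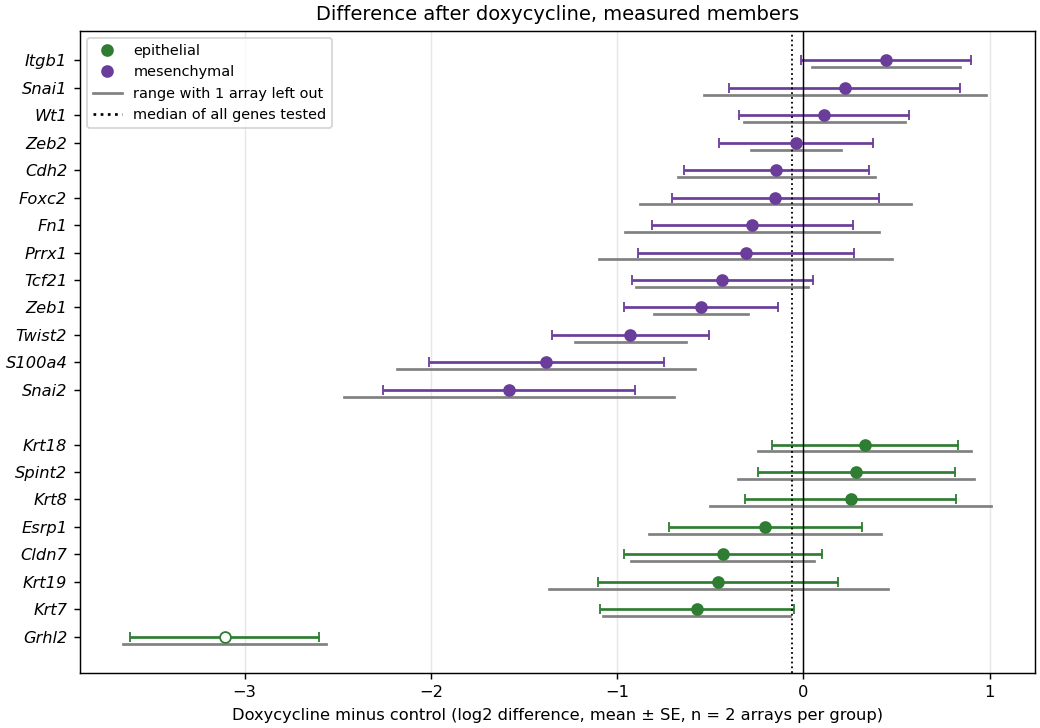
Log2 difference (doxycycline minus control, mean ± SE, n = 2 arrays per group) of each of the 21 measured members, with a grey bar for the range when 1 array is left out and a dotted line at the median of all genes tested, -0.06. Grhl2 (open point, -3.11) was below background on both doxycycline arrays, and Snai2 (-1.58) and S100a4 (-1.38) are the lowest of those measured in both groups.

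Levels of other cells' markers are given beside the mesenchymal genes, since they differed between arrays too, and limma called 0 of them. Control array 1 was above control array 2 for 10 of the 13 measured mesenchymal genes, with a median gap of 0.86, while it was below for 6 of the 8 measured epithelial genes (-0.62) and for 53.4% of all genes. Over the arrays in the order control 1, control 2, doxycycline 1 and doxycycline 2, the median level of 14 fibroblast markers was 2.54, 0.89, -1.09 and -0.21. Of these, 13 lay below control on average, against 54.8% of all genes. The median difference of the 14 was -1.52, and -0.89 without control array 1. Their summed level was 149 to 421 in control and 129 to 150 after doxycycline, and 0 of the 14 were dark (not well above background) on all arrays.

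Macrophage markers lay lower on average as well, all 9 that were measured, against 54.8% of all genes. Their median difference was -1.15, and their summed level was 8.29 to 22.9 in control and 6.05 to 6.87 after doxycycline. Cx3cr1, a receptor of resident macrophages, was under the background threshold on both doxycycline arrays and was measured only through its control arrays. Red cell genes were 1.64 lower by median (-1.64). Without control array 1 the medians were -0.55 for macrophage and -0.46 for red cell markers. Endothelial markers, by contrast, had a median difference of -0.26, which was 0.30 without control array 1. Smooth muscle and pericyte markers had a median of -0.55, or 0.14 without control array 1, and a summed level of 60.5 to 70.8 in control and 22.0 to 30.5 after doxycycline. Acta2 was the largest part of the control sums, with log2 levels of 4.89 and 5.43, against 3.33 and 2.05 after doxycycline. Of these 8 markers, 3 lay below both controls on both doxycycline arrays, against 20.8% of all genes, and 5 overlapped. Of 6 lymphocyte markers 1 was measured. The part of these cells in the lower Snai2, S100a4, Twist2 and Zeb1 values was not tested.

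**Figure D4:**
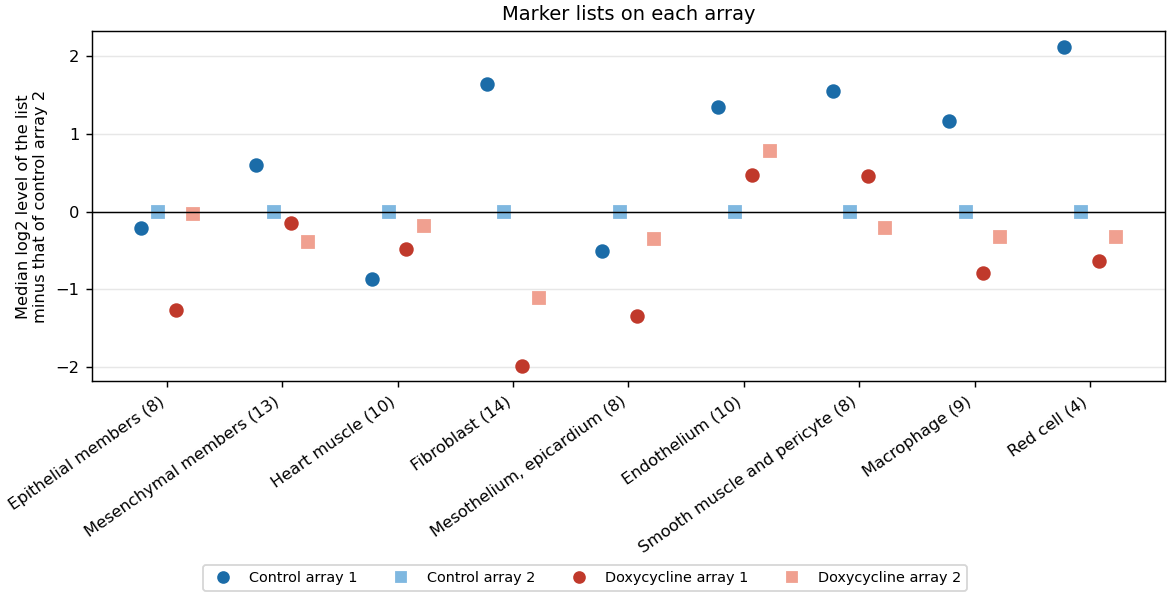
Median log2 level of each gene list on each array, as the difference from control array 2, with the number of genes measured in brackets. Control array 1 stands above control array 2 for the fibroblast, endothelial, smooth muscle, macrophage and red cell markers and for the mesenchymal members, and fibroblast markers on both doxycycline arrays (levels of -1.09 and -0.21) lie below both controls (2.54 and 0.89).

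Most of the other cell junction genes outside the tight junction were detected, though the arrays do not show in which cells. Of 14 adherens junction and desmosome genes, 13 were well above background on all 4 arrays, and many of them are known from the intercalated disc. Their median difference was 0.09. Among the 4 with the smallest p were Ctnnb1 (beta-catenin) at -0.62 ± 0.43, the desmosomal cadherin Dsg2 at 0.75 ± 0.57 and the desmosomal plaque gene Pkp2 (plakophilin 2) at 0.86 ± 0.68 (SE). Nectin1 differed by -0.72 ± 0.51. Pkp2 was low on control array 1 (2.41) and read 4.44, 4.16 and 4.40 on the others.

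Of 16 tight junction and polarity genes, 9 were measured and 5 were dark on all arrays, among them Cgn (cingulin) and Cldn1. The measured ones had a median difference of -0.21. Mpp5 (Pals1), a polarity scaffold, lay higher on both doxycycline arrays by 0.68 ± 0.40 (SE), and Cldn23 lower on both by -0.58 ± 0.40. The scaffold gene Tjp1 differed by -0.39 ± 0.46.

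Of 19 further epithelial genes, 12 were dark on all arrays, among them the keratins Krt5 and Krt14, P-cadherin (Cdh3) and the factors Elf3, Ehf and Grhl3. Of the 6 that were measured, 5 lay below control on average, against 54.8% of all genes. Both doxycycline arrays lay below both controls for 1, against 20.8% of all genes, and above both for 1, against 14.5%. The other 4 overlapped. The laminin receptor subunits Itga6 (-1.21 ± 0.61, SE) and Itgb4 (-1.71 ± 0.89), which other cells carry too, were highest on control array 1, at 5.22 and -0.59. Grhl1, a relative of Grhl2, lay higher on both doxycycline arrays, by 0.78 ± 0.44, and was not well above background on control array 1. Trp63 differed by -0.38 ± 0.43, and a second Trp63 probe was dark on all arrays. Of 6 airway and gut markers 4 were dark on all arrays and the other 2 were well above background on 1. In these 3 epithelial and junction lists limma called 0 genes, and 0 had an unadjusted p under 0.05.

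The other mesenchymal matrix and cytoskeleton genes were the part of the pathway with the largest differences. Of 25, 23 were measured, 19 of them below control on average, against 54.8% of all genes. The median difference was -0.99. Limma called 0 at an adjusted p under 0.05. At an unadjusted p under 0.05 there were 8 lower and 1 higher, against 3.89% and 3.17% of all genes. Both doxycycline arrays lay below both controls for 12, against 20.8% of all genes. Postn, in both of these counts of lower genes, was measured only through its control arrays, so its count supports nothing by itself. Without control array 1, which leaves 1 control array, the median was -0.32. Since Col1a1, Col1a2, Col3a1, Thy1, Pdgfra and Cdh11 are also in the fibroblast list, and Acta2, Tagln and Pdgfrb in the smooth muscle list, the matrix genes are not separate evidence. The part of fibroblasts and smooth muscle cells in these values was not tested.

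The genes with the smallest p in that list were collagens and matrix genes of fibroblasts, and smooth muscle actin. Col3a1 read 2.63 and 1.04 in control and -2.21 and -1.30 after doxycycline, a difference of -3.59 ± 0.63 (SE, limma adjusted p = 0.248). Col1a1 differed by -2.93 ± 0.65 and Acta2, smooth muscle actin, by -2.47 ± 0.54 (limma adjusted p = 0.331 for both). Postn, periostin, missed the scanner software's background call on both doxycycline arrays, and an approximate bound was 8.79-fold lower. On doxycycline array 2 its signal of 12.9 exceeded the dimmest called one, 11.9, so its own signal entered the bound there. As for Grhl2, the bound is not a strict limit. Vim, the intermediate filament gene of mesenchyme, differed by -1.16 ± 0.62, with doxycycline array 2 at 3.08 beside control array 2 at 3.13. Vim was named after its values were seen.

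Genes of transforming growth factor beta signalling, which drives the mesenchymal state, had a median difference of 0.02 over all 14. The receptor gene Tgfbr2 lay higher on both doxycycline arrays (0.84 ± 0.48, SE), while Ltbp1, which binds the latent ligand, and Smad2 lay lower on both (-0.83 ± 0.40 and -0.37 ± 0.39). Of the mesenchymal factors outside the 14 members, 7 of 10 were measured, with a median of -0.58. Sox4 read 0.54 and 0.58 in control and -0.96 and -1.12 after doxycycline, a difference of -1.60 ± 0.39 (limma adjusted p = 0.367). Tcf3 (-0.86 ± 0.48) and the epicardial factor Tbx18 (-0.74 ± 0.46) also lay below both controls, and Foxf1 differed by 1.21 ± 0.72.

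**Figure D5:**
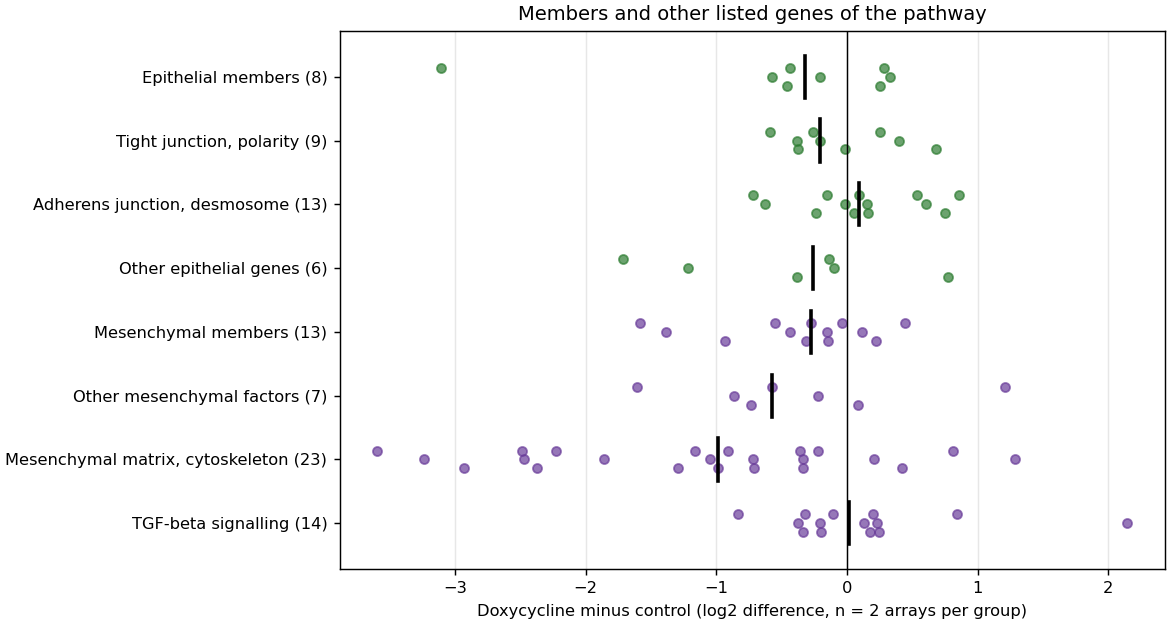
Log2 difference (doxycycline minus control, n = 2 arrays per group) of every measured member and of the other listed genes, one point per gene, with a black bar at the list median and the number of genes in brackets. The matrix and cytoskeleton list has the lowest median (-0.99), and the adherens junction and desmosome list the highest (0.09).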

How the data were processed

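RNA of 4 samples was hybridised to 1-colour Agilent arrays. The authors' scanner software was Feature Extraction 10.7.1.1, per the file headers (design build mm9). Its deposited processed intensity has background and spatial trend removed within an array, with no scaling between arrays. Later steps were not given in the sources. Accessions were named through a RefSeq table of GRCm38.p6 (27508 of 39429 probes).

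Outlier spots were dropped. The log2 values minus the array's 75th percentile were averaged per probe. A probe well above background on at least 2 of 4 arrays was kept (for repeated spots, at least 0.5 of them), and the brightest stood for a gene. Groups followed the sample titles and were compared two-sided with limma 3.58.1 in R 4.3.3 (Benjamini-Hochberg over all genes, threshold 0.05), tested on simulated data. An exact permutation test could not go below p = 0.333. The alternatives were normexp (offset 50), quantile or median scaling, 2 other filters, mean of probes, 2 variance models, a replicate block and leaving out each array.

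The members and lists were chosen with earlier results of these data known. Named were all members, the 4 genes with the smallest p of each pathway list, and the introduced factors; some items that this rule takes in are not reported here. Promoters were searched in Python 3.11.15.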

Additional observations from a re-analysis of the deposited data

How the results depend on the processing

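With 2 arrays per group and most epithelial probes at background, small differences could not be measured. The number of genes called by limma over all genes was 0 in the main analysis and 128 when arrays were scaled to the median (95 higher and 33 lower; at an unadjusted p under 0.05, 727 higher and 268 lower, against 398 and 488). It was 295 with the replicate block, and 0 to 171 when 1 array was left out. The deviations of same-numbered arrays from their group means correlated at -0.085, so the numbers were not taken to pair the arrays, and among the members the block changed the call of Grhl2 alone. Genes at an unadjusted p under 0.05 numbered 886, 1871 with no filter on dim probes, and 385 to 3056 when 1 array was left out. The mesenchymal median of -0.27 became 0.073 when scaled to the median and ranged from -0.80 to -0.049 with 1 array left out. Signs turned with normexp for Krt8 (-0.38), Krt18 (-0.046) and Snai1 (-0.073), with quantile normalization for Esrp1 (0.24), and with median scaling for Esrp1 (0.14), Zeb2 (0.31), Cdh2 (0.20), Fn1 (0.073), Foxc2 (0.20) and Prrx1 (0.037). With 1 array left out, signs turned for Krt8 (-0.50 to 1.01), Krt18 (-0.24 to 0.90), Krt19 (-1.37 to 0.45), Cldn7 (-0.92 to 0.059), Esrp1 (-0.83 to 0.42), Spint2 (-0.35 to 0.92), Snai1 (-0.54 to 0.98), Zeb2 (-0.28 to 0.20), Cdh2 (-0.68 to 0.38), Fn1 (-0.96 to 0.41), Foxc2 (-0.88 to 0.58), Prrx1 (-1.10 to 0.48), Tcf21 (-0.90 to 0.025) and Wt1 (-0.32 to 0.54). Krt7, Grhl2, Snai2, Twist2, Zeb1, Itgb1 and S100a4 kept their sign in every alternative that gave a value. The cause of these changes was not tested. The run without control array 1 for the matrix list was added after seeing the data.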
